A study of Homo sapiens with 8 samples.

Results

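The genes described here make cholesterol and fatty acids or control that synthesis. They are 35 of the 18388 genes listed in the SLAM-Seq data, chosen by name from pathway membership: 7 genes of the mevalonate steps, 11 from squalene to cholesterol, 4 regulators of the SREBP transcription factors, 2 sterol transport genes and 11 fatty acid genes. The first 18 are called the sterol branch. Earlier results of these data were known when the members were chosen. After a filter of at least 100 reads in at least 3 of 6 libraries, 34 of the 35 were tested, all but TM7SF2.

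SLAM-Seq adds the uridine analogue 4sU to living cells, so that RNA made during the pulse carries T-to-C conversions after alkylation with iodoacetamide and sequencing. All libraries came from U-2OS Tet-ON, an osteosarcoma line that expresses the tetracycline-regulated transactivator, grown with 10% serum and harvested 72 h after transfection with 50 nM siRNA. The comparison is between 3 libraries of the control knockdown (siControl, non-targeting siRNA) and 3 of the CGGBP1 knockdown (siCGGBP1, a pool of siRNAs), each with 75 µM 4sU for the last 60 min. The titles of all libraries also name DMSO. A siControl library with 0 µM and another with 200 µM 4sU stand alone. CGGBP1 is a protein that binds CGG triplet repeats in DNA, and the study asked how total and newly synthesized RNA differ when it is depleted.

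Cholesterol is built from acetyl-CoA through mevalonate, isoprenoids, squalene and a series of sterol intermediates. Fatty acids are built from the same acetyl-CoA, which ATP citrate lyase (ACLY) splits from citrate in the cytosol. When membrane sterol is low, the escort protein SCAP carries SREBP precursors out of the endoplasmic reticulum for cleavage and INSIG1 no longer holds them back. The cleaved factors then act on both branches, SREBP-2 (SREBF2) mostly on sterol genes and SREBP-1 (SREBF1) mostly on fatty acid genes. Proliferating tumour cells use both branches to make membrane.

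The promoters of the members on which the results below turn are shown here as the 150 bases before the RefSeq start (GRCh38.p14), 5′ to 3′ on the strand of the gene. For a gene with several starts the window farthest upstream is given. Capitals mark the CCAAT box (CCAAT), the GC box (GGGCGG), the sterol regulatory element (SRE, TCACNCCAC) and a pair of CGG repeats (CGGCGG), each searched on both strands. The GC box and the CGG pair share letters and can overlap. ACLY is the called member, and ACSL3 and ACACA are the members whose new share of RNA did not overlap between groups. FDPS and MVK are the mevalonate genes with the lowest p. Of the 31 members matched to a promoter, SREBF2 alone holds these SRE letters, and looser forms of the element were not searched. FADS1 is 1 of 6 fatty acid genes, of 10 matched, with a CGG pair from 250 bases before to 50 after the start. ACSL3 is another, with no pair within the 150 bases shown.
ACLY (chr17:41919023-41919172, minus strand): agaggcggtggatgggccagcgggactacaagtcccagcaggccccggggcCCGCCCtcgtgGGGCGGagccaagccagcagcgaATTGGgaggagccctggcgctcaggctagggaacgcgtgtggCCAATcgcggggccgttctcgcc
ACSL3 (chr2:222860886-222861035, plus strand): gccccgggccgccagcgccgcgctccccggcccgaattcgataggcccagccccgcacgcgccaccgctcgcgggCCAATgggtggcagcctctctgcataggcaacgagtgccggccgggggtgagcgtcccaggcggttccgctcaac
ACACA (chr17:37406837-37406986, minus strand): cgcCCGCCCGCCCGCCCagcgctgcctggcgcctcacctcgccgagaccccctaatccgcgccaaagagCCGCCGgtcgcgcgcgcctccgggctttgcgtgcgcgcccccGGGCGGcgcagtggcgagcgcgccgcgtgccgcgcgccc
FADS1 (chr11:61817004-61817153, minus strand): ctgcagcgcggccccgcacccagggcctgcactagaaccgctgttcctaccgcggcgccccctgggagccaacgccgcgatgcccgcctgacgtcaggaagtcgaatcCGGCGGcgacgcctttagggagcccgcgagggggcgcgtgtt
FDPS (chr1:155308716-155308865, plus strand): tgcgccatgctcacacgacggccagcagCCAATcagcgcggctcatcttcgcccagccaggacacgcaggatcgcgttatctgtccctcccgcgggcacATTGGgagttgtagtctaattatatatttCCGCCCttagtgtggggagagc
MVK (chr12:109573644-109573793, plus strand): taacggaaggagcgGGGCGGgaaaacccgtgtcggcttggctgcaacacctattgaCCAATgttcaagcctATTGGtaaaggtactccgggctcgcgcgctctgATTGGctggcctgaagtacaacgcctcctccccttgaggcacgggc
SREBF2 (chr22:41832955-41833104, plus strand): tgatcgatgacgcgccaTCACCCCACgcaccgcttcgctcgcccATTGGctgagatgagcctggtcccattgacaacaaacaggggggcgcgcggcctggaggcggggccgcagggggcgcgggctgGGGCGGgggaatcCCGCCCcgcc

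Of the 35 members, 31 matched a RefSeq promoter window of 250 bases before to 50 after the start, and FASN, ACAT2, FDFT1 and SQLE did not. The SRE letters stood in 1 of the 31 (SREBF2, 3.23%), against 1.48% of tested genes with a window and 1.13% of all 35116 windows. A CCAAT box, the site of the factor NF-Y, stood in 22 (71.0%), 13 of 15 sterol genes and 6 of 10 fatty acid genes, against 43.9% of the tested genes with a window. A GC box, bound by Sp1, stood in 30 (96.8%), against 78.9% of tested genes. A pair of CGG repeats stood in 14 (45.2%), 4 of 15 sterol genes and 6 of 10 fatty acid genes, against 59.6% of tested genes and 29.6% of all windows. A run of 3 CGG repeats (CGGCGGCGG) stood in 4 (12.9%), namely ACACA, ME1, LPIN1 and SC5D, against 14.7% of tested genes. The E-box (CACGTG) stood in 4 (12.9%), namely INSIG1, LSS, SC5D and SCAP, against 13.2% of tested genes. These are matches of letters in a short window and say nothing about binding.

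The 6 libraries held 10127519 to 14221516 reads, and those with 0 and 200 µM 4sU held 19011714 and 11341561. Replicate 3 of each group stood apart from its group, with a read in 13030 genes (siControl) and 12531 genes (siCGGBP1) against 14935 to 15608 in the other libraries with 75 µM 4sU. The libraries with 0 and 200 µM were as low, with 13237 and 12886. CGGBP1 itself had 1245, 1089 and 892 normalised reads (counts scaled to a common library size) in the siControl libraries, in the order of their replicate numbers as in all lists below, and 212, 117 and 362 in siCGGBP1. It fell 4.66-fold (adjusted p = 0.0138, edgeR), as the labels state. VIM, a mesenchymal gene, had 27160 to 38012 normalised reads and the osteoblast factor RUNX2 118 to 385, and the collagen gene COL1A1 had 6988 to 9820 in siControl and 17258 to 23619 in siCGGBP1. Of the mature osteoblast genes, SP7 and ALPL had at most 20.8, BGLAP at most 45.1 and SPP1 29.1 to 145 in siControl and 0 to 12.7 in siCGGBP1. Of the cell types for which lipid synthesis is a main function, the hepatocyte gene APOA1 had at most 8.10 and the adipocyte genes CIDEC and LEP at most 5.75. The epithelial CDH1 and the T cell gene CD3E were at 0 in every library, while the epithelial EPCAM had 53.2 to 94.4 in siControl and 78.3 to 152 in siCGGBP1. The study's methods describe its replicates as biological, and p-values measure the spread between these libraries.

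In total RNA, most fatty acid genes had negative log2 fold changes after CGGBP1 knockdown, of which 1 passed the test, and the sterol genes had values on both sides of 0. ACLY, which supplies acetyl-CoA to both branches, fell 2.78-fold and was the 1 member called (edgeR adjusted p under 0.05 and a log2 fold change beyond 1 in either direction). Of the 11 fatty acid genes, 10 had a negative log2 fold change and 7 were lower at an unadjusted p under 0.05. Of the 17 sterol genes tested, 8 were negative and 9 positive, with 1 lower and 2 higher at that threshold and 0 called by edgeR or DESeq2. The median log2 fold change was -0.69 over the fatty acid genes, 0.05 over the sterol genes and 0.00 over all 10138 tested genes. In bulk RNA, fewer cells of a kind and less RNA per cell cannot be told apart.

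Over all tested genes, 0.957% were called lower and 0.454% called higher, so that the 1 of 34 members called lower and the 0 called higher stand against small backgrounds. At an unadjusted p under 0.05, 8.32% of all tested genes were lower and 8.11% higher. Of the members 8 of 34 were lower, 7 of them fatty acid genes, and 2 were higher, both sterol genes. Because the members were chosen with earlier results known, no p is given for these counts. The lowest siControl library stood above the highest siCGGBP1 library in 12.1% of all tested genes, and in 5 of 11 fatty acid and 3 of 17 sterol genes. The opposite order held in 12.1% of all tested genes, in 0 fatty acid genes, in 1 sterol gene (SQLE) and in STARD4.

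**Figure D1:**
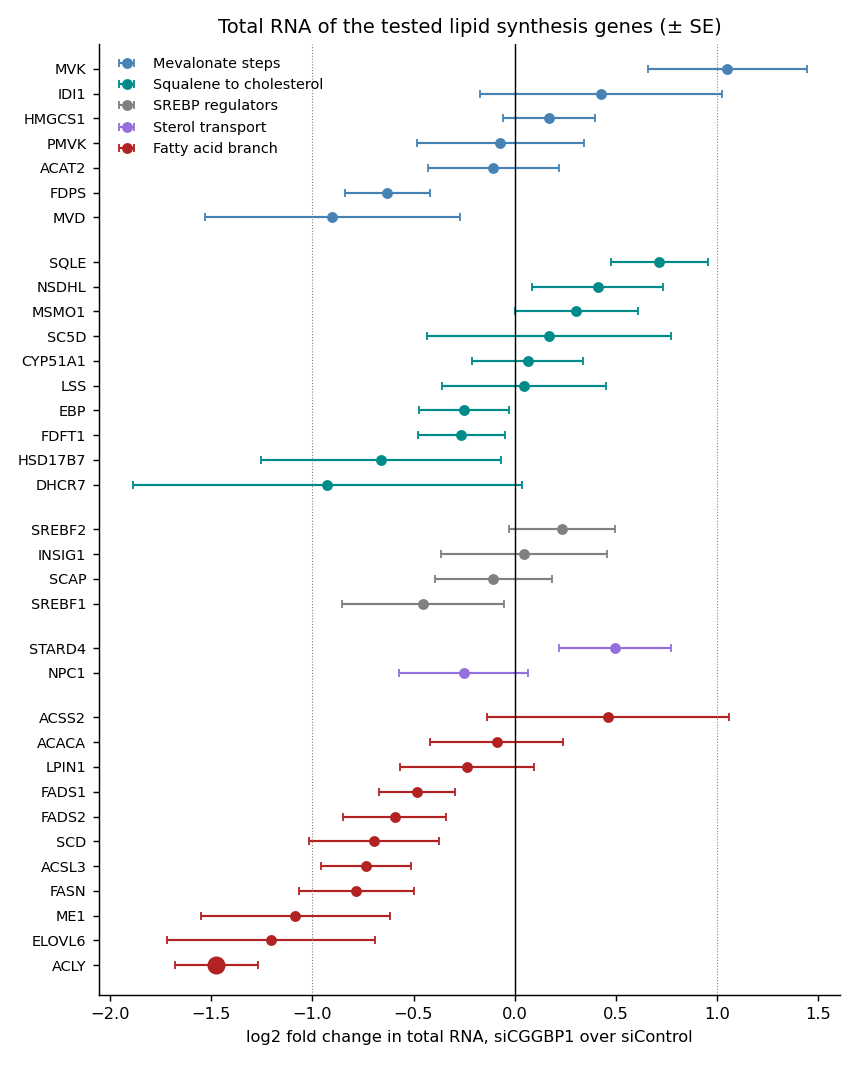
Log2 fold change in total RNA of the 34 tested members (horizontal axis, siCGGBP1 over siControl, bars ± SE), grouped by pathway step. The large point is ACLY at -1.48, the 1 member called, and of the fatty acid genes ACSS2 alone lies right of 0.

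The first step of the fatty acid branch carried the largest difference among its members. ACLY (ENSG00000131473, chromosome 17, 41866917 to 41930542, minus strand, GRCh38) had 3253, 3191 and 4443 normalised reads in siControl and 1392, 1310 and 1211 in siCGGBP1. The groups were far apart, and the siCGGBP1 libraries lay close to each other. The log2 fold change was -1.48 (SE 0.205, edgeR adjusted p = 0.00457). It kept its call in all 12 alternatives run, and when each library was left out in turn it ranged from -1.57 to -1.30 with an adjusted p from 0.0104 to 0.0312. ACSS2 makes acetyl-CoA from acetate instead of citrate. It was weakly covered, with 81.0, 106 and 193 normalised reads in siControl and 161, 185 and 178 in siCGGBP1, and was the 1 fatty acid gene with a positive log2 fold change (0.46, SE 0.597, edgeR adjusted p = 0.768).

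Acetyl-CoA carboxylase (ACACA) commits acetyl-CoA to fatty acids. It had 726, 657 and 1222 normalised reads in siControl and 1119, 789 and 544 in siCGGBP1, and the groups overlapped (log2 fold change -0.09, SE 0.330). Fatty acid synthase (FASN), which builds the chain, had 1536, 1770 and 2588 in siControl and 1071, 1557 and 799 in siCGGBP1. Its groups overlapped, siCGGBP1 replicate 2 being just above siControl replicate 1, and the log2 fold change was -0.78 (SE 0.284, unadjusted p = 0.0166, adjusted p = 0.187). Malic enzyme (ME1), a source of NADPH for synthesis, had 445, 392 and 573 against 332, 248 and 86.3. Its groups did not overlap, and siCGGBP1 replicate 3 was the lowest (log2 fold change -1.08, SE 0.469, adjusted p = 0.275).

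The elongase ELOVL6 and the desaturases modify the new chain. ELOVL6 had 590, 408 and 440 normalised reads in siControl and 85.1, 143 and 394 in siCGGBP1. Replicates 1 and 2 of siCGGBP1 were far below siControl, while replicate 3 was close to it (log2 fold change -1.21, SE 0.513, adjusted p = 0.267). Without siCGGBP1 replicate 3 the value was -2.06 and ELOVL6 was called as well (adjusted p = 0.0277).

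SCD, which makes monounsaturated fatty acids, had 5264, 3526 and 9925 normalised reads in siControl and 3557, 2947 and 5058 in siCGGBP1. The groups overlapped, and siControl replicate 3 was far above the rest (log2 fold change -0.69, SE 0.322, unadjusted p = 0.0507). The desaturase FADS1, which makes polyunsaturated fatty acids, had 3627, 3962 and 4661 against 2788, 3300 and 2681, with no overlap (-0.48, SE 0.187, adjusted p = 0.216). Its neighbour FADS2 had 1976, 1549 and 2863 against 1151, 1424 and 1655, with overlap (-0.59, SE 0.255, adjusted p = 0.271). FADS1 (minus strand) and FADS2 (plus strand) overlap in the annotation on chromosome 11, and whether counting used strand is not given in the sources used here, so reads could be shared between them.

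ACSL3 activates long-chain fatty acids by joining them to coenzyme A. It had 1344, 1747 and 1839 normalised reads in siControl and 958, 980 and 1028 in siCGGBP1. The groups did not overlap and the siCGGBP1 libraries were tightly grouped, with a log2 fold change of -0.73 (SE 0.223, unadjusted p = 0.00601, adjusted p = 0.116). LPIN1, which makes diacylglycerol, overlapped between groups (-0.24, SE 0.330).

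**Figure D2:**
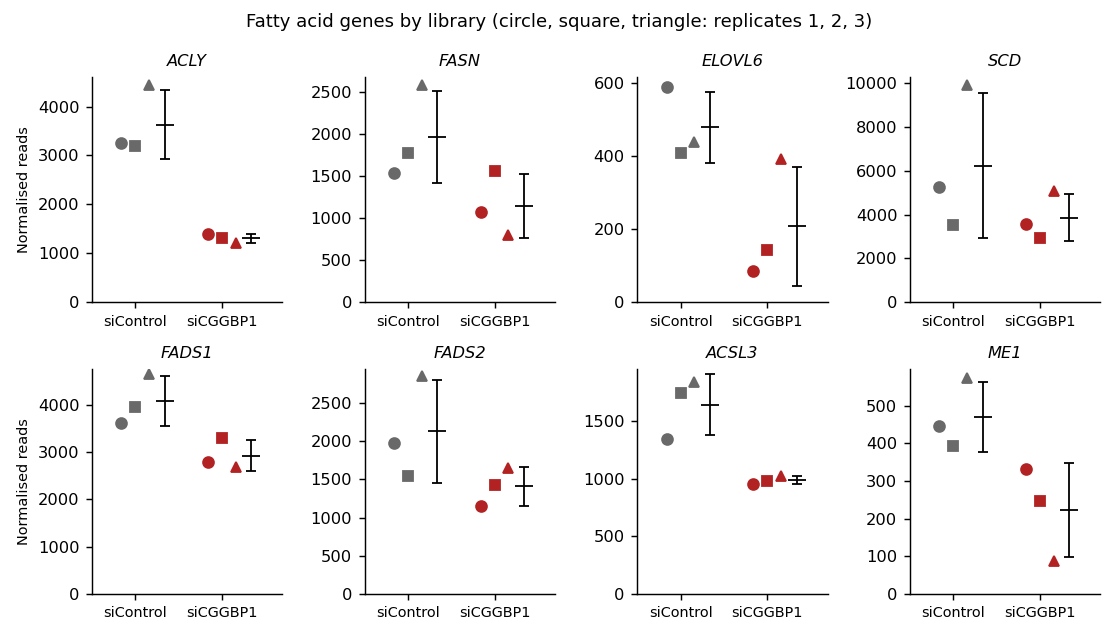
Normalised reads (vertical axis, from 0) of 8 fatty acid genes in each siControl (grey) and siCGGBP1 (red) library, with the mean ± SD of 3 libraries in black. The groups are apart for ACLY, ELOVL6, FADS1, ACSL3 and ME1, and siControl replicate 3 (triangle) is the highest library for 7 of the 8 genes.

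The size of the fatty acid difference depended on siControl replicate 3. Relative to the siControl mean on the log2 scale, the branch median was -0.16, -0.21 and 0.43 in siControl and -0.68, -0.53 and -0.60 in siCGGBP1. All siCGGBP1 libraries were thus below all siControl libraries, with siControl replicate 3 well above the other siControl libraries. Without that library the median log2 fold change was -0.38, 8 of 11 values were negative, and 2 genes (ACLY and ACSL3) remained lower at an unadjusted p under 0.05. That count was 3 without siCGGBP1 replicate 1 and 4 without siCGGBP1 replicate 2. Without replicate 3 of both groups, an alternative chosen after seeing the data, the median was -0.43, 3 genes were lower at that threshold (ACLY, ELOVL6 and ACSL3), and ACLY and ELOVL6 were called.

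Of the 7 mevalonate genes, 4 had negative and 3 positive log2 fold changes, beside 49.9% negative over all tested genes. None of the 7 passed an adjusted p of 0.05 by edgeR. The kinase MVK had 317, 230 and 247 normalised reads in siControl and 648, 290 and 709 in siCGGBP1. Its siCGGBP1 replicate 2 lay within the siControl range, and the log2 fold change was 1.05 (SE 0.392, unadjusted p = 0.0191, adjusted p = 0.199). FDPS, which makes farnesyl pyrophosphate, had 2382, 2040 and 2034 in siControl and 1472, 1550 and 1151 in siCGGBP1. Its groups did not overlap (log2 fold change -0.63, SE 0.209, unadjusted p = 0.0104, adjusted p = 0.153), and the unadjusted p stayed under 0.05 when each library was left out in turn. FDPS has processed pseudogenes, between which the counting could split reads.

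The other mevalonate genes had smaller or less certain values. HMGCS1, which makes HMG-CoA, had a log2 fold change of 0.17 (SE 0.228), the thiolase ACAT2 -0.11 (SE 0.324) and the second kinase PMVK -0.07 (SE 0.414). The isomerase IDI1 had 0.43 (SE 0.599) and the decarboxylase MVD -0.90 (SE 0.630), with at most 336 and 270 normalised reads in a library. None of these 5 passed an unadjusted p of 0.05.

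From squalene onwards, SQLE, the epoxidase that is a rate-limiting step of the late pathway, was the member with the lowest p. It had 988, 892 and 962 normalised reads in siControl and 1199, 1537 and 1931 in siCGGBP1. Every siCGGBP1 library was above every siControl library (log2 fold change 0.72, SE 0.240, unadjusted p = 0.0108, adjusted p = 0.155), and the unadjusted p stayed under 0.05 with each library left out in turn. NSDHL, which removes methyl groups from the sterol ring with other enzymes, had 355, 413 and 374 against 514, 373 and 631, with overlap (0.41, SE 0.325).

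The remaining 8 tested genes of these steps did not pass an unadjusted p of 0.05. FDFT1, which makes squalene, had a log2 fold change of -0.26 and the cyclase LSS 0.05. The demethylation enzymes CYP51A1 and MSMO1 had 0.06 and 0.31, and HSD17B7, which acts with NSDHL and has a near-identical pseudogene, had -0.66. The isomerase EBP had -0.25 and the desaturase SC5D 0.17. DHCR7, the last reductase, had 514, 521 and 732 normalised reads in siControl and 439, 491 and 0.822 in siCGGBP1, so its log2 fold change of -0.93 (SE 0.962) rested on siCGGBP1 replicate 3 and was -0.33 without it. TM7SF2, another sterol reductase, had 67.1, 129 and 0 in siControl and 116, 83.3 and 0 in siCGGBP1 and did not pass the filter.

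None of the regulators passed the test. SREBF1 had 532, 533 and 336 normalised reads in siControl and 366, 185 and 473 in siCGGBP1, with overlap (log2 fold change -0.45, SE 0.399, edgeR adjusted p = 0.629). SREBF2 had 812, 800 and 702 against 912, 1122 and 689, with overlap (0.23, SE 0.264, edgeR adjusted p = 0.725). INSIG1 had a log2 fold change of 0.05 (SE 0.411) and SCAP -0.11 (SE 0.290). These are RNA levels and carry no measure of SREBP cleavage.

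Of the transport genes, STARD4, which moves sterol through the cytosol, had 565, 543 and 627 normalised reads in siControl and 1043, 636 and 768 in siCGGBP1. The groups did not overlap, though siControl replicate 3 and siCGGBP1 replicate 2 nearly met (0.50, SE 0.279, edgeR adjusted p = 0.411). NPC1, which exports cholesterol from lysosomes, had 627, 563 and 807 against 409, 482 and 783, with overlap (-0.25, SE 0.319).

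**Figure D3:**
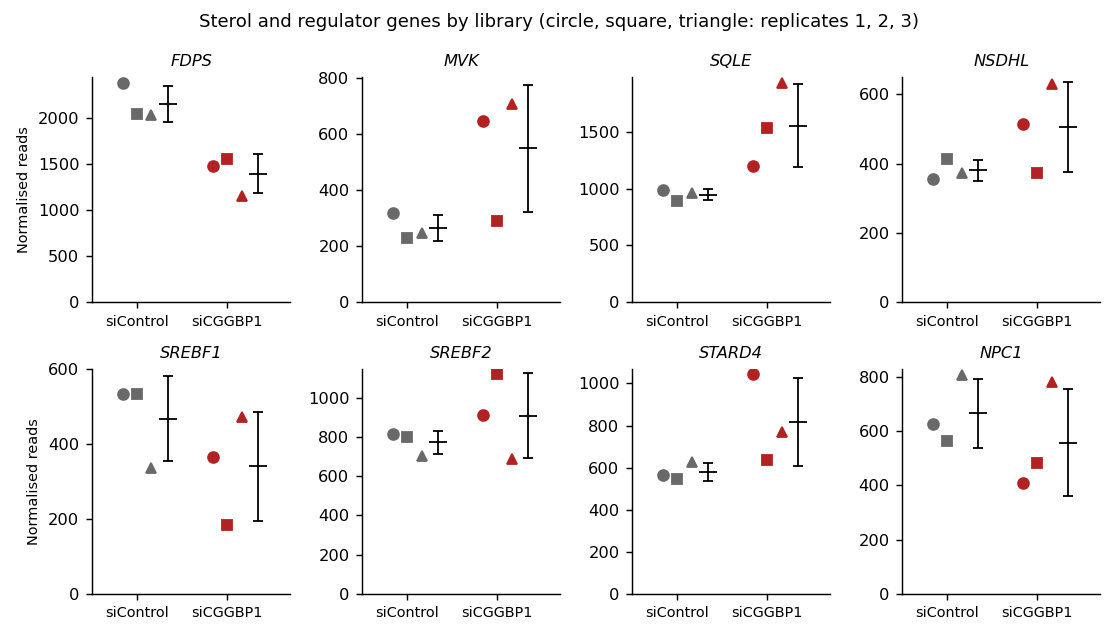
Normalised reads (vertical axis, from 0) of 8 sterol, regulator and transport genes in each siControl (grey) and siCGGBP1 (red) library, with the mean ± SD of 3 libraries in black. FDPS is lower and SQLE and STARD4 higher in all siCGGBP1 libraries, and the other 5 genes overlap.

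Other genes near these pathways, listed by function, gave 1 call. NPC2, the lysosomal partner of NPC1, had 2520, 2823 and 3019 normalised reads in siControl and 5961, 5701 and 6784 in siCGGBP1. It rose 2.21-fold (log2 fold change 1.14, SE 0.175, edgeR adjusted p = 0.00755), with no overlap. Among the 10 tested of 11 further sterol genes, it was the 1 called.

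The remaining lipid lists held no call. The 13 tested of 17 further fatty acid genes had 6 negative and 7 positive values, a median of 0.02, and 0 past an unadjusted p of 0.05 in either direction by edgeR. None of the 8 tested of 9 further SREBP control genes and none of the 5 tested of 6 LXR targets passed that threshold either. The 7 tested glycerolipid genes had 1 in each direction, GPAT4 (-1.04, SE 0.297, adjusted p = 0.0984) and AGPAT1 (0.75, SE 0.290, adjusted p = 0.216). Of the 11 tested fatty acid oxidation genes, 4 had negative and 7 positive values, with a median of 0.12, and by edgeR 3 were higher and 0 lower at an unadjusted p under 0.05.

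Proliferation genes had negative log2 fold changes in the same comparison. This held for all 14 listed genes, with a median of -0.54, and 9 were lower at an unadjusted p under 0.05, 2 at an adjusted p under 0.05 and 1 called. MCM5, a subunit of the replicative helicase, had 1670, 1876 and 1202 normalised reads in siControl and 635, 753 and 345 in siCGGBP1 and fell (-1.46, SE 0.311, adjusted p = 0.0346). Its partner MCM3 had 4266, 4931 and 4793 against 3124, 2513 and 2014 and fell too (-0.87, SE 0.201, adjusted p = 0.0492), without passing the fold needed for a call. The part of proliferation in the fatty acid values was not tested.

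Newly synthesized RNA was read as the new-to-total ratio, the share of a gene's RNA that GRAND-SLAM assigns to the pulse, and as reads multiplied by that ratio. These come from the same libraries as total RNA. Over the 35 members, conversions were 0.142 to 0.285 per 100 covered T in the 6 libraries and 0.0755 without 4sU. The ratio was low: its median over the 34 members was 2.72, 4.13 and 0.00% in siControl and 2.09, 1.21 and 0.00% in siCGGBP1, against 3.82, 4.74 and 0.00% and 3.37, 2.78 and 0.00% over all tested genes. It was estimated as 0 for 20 of 34 members in replicate 3 of each group and for 7 to 14 in the other libraries, and such a 0 can be a failed estimate.

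No member was called in new RNA by edgeR, DESeq2 or limma. By edgeR 0.0493% of all tested genes were called and 3.15% passed an unadjusted p of 0.05, and of the members ACACA alone did so. The median log2 fold change in new RNA was -1.63 over the fatty acid genes and 0.00 over the sterol genes. With genes that had almost no new reads in a group set to the bound that 3 reads allow, the medians were -1.24 over 10 fatty acid genes and 0.17 over 16 sterol genes. Leaving out single libraries moved the fatty acid median from -3.37 (without siCGGBP1 replicate 1) to -0.06 (without siControl replicate 2) and the sterol median from 0.00 to 1.56 (without siControl replicate 1), so neither was settled.

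ACSL3 had lower values in total RNA and higher values of the new share. It is described because its ratio did not overlap between groups, so no test of that ratio is given. The ratio was 2.65, 7.38 and 8.47% in siControl and 15.6, 17.8 and 43.9% in siCGGBP1. The 90% credible limits, which cover counting error only, were at most 10.0% in siControl and at least 13.1% in siCGGBP1. Conversions per 100 covered T, from which the ratio is estimated, were 0.190, 0.304 and 0.290 in siControl. They were 0.644, 0.796 and 1.51 in siCGGBP1, with 0.00482 without 4sU. In new reads, which follow both the ratio and the total, the log2 fold change was 1.27 (SE 1.00) and the edgeR adjusted p was 1. The ratio lay higher without overlap in 3.01% of all tested genes and in ACSL3 alone of the 34 members, which is near that background share.

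ACACA overlapped in total RNA and had lower values of the new share. It is singled out after its values were seen, for the same reason and with no test of the ratio. Its ratio was 13.1, 6.80 and 17.1% in siControl and 0, 0.83 and 0% in siCGGBP1, again without overlap of the credible limits. Conversions per 100 covered T were 0.468, 0.281 and 0.419 in siControl and 0.0953, 0.102 and 0 in siCGGBP1. The library without 4sU had 0.131, so the siCGGBP1 libraries were below the unlabelled level. The new reads were 94.9, 45.0 and 208 in siControl and 0, 6.94 and 0 in siCGGBP1 (unadjusted p = 0.0210, adjusted p = 0.994, edgeR), and a fold from such counts depends on the prior count. A ratio lower without overlap was found in 4.25% of all tested genes and in ACACA alone of the 34 members, which is no more than the background share.

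**Figure D4:**
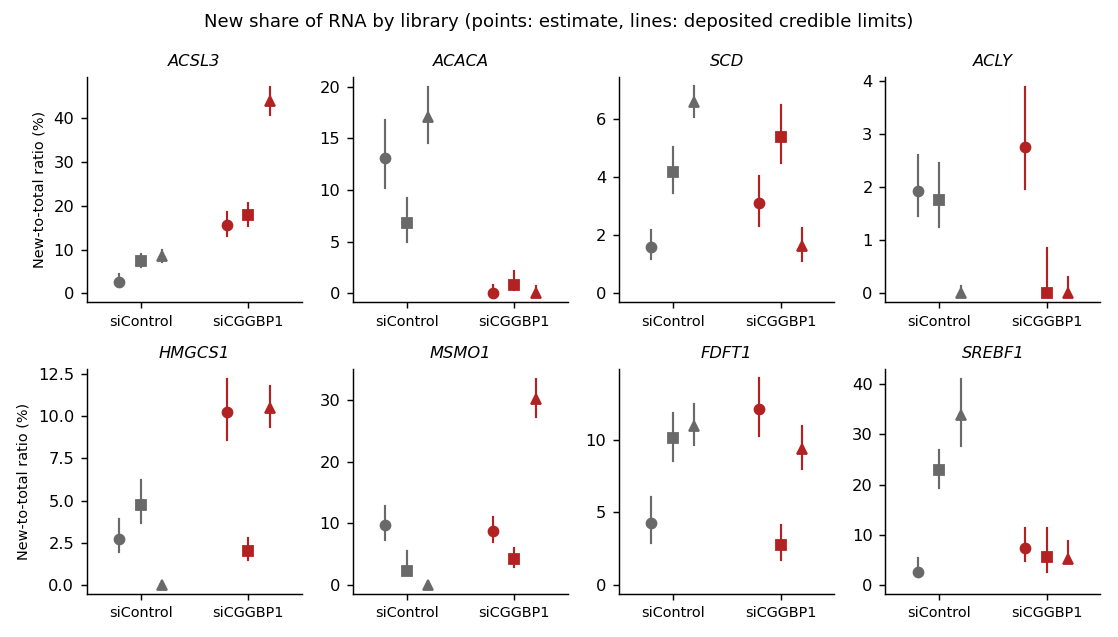
New-to-total ratio in percent (vertical axis) of 8 members in each siControl (grey) and siCGGBP1 (red) library, where circle, square and triangle are replicates 1, 2 and 3 and lines are the deposited 90% credible limits. The groups are apart for ACSL3 and ACACA, and the libraries of one group differ by more than their limits in most other panels.

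The other members showed how far the ratio varied between libraries of 1 group. HMGCS1 had 2.76, 4.77 and 0% in siControl and 10.2, 2.03 and 10.5% in siCGGBP1, and MSMO1 had 9.72, 2.34 and 0% against 8.72, 4.23 and 30.1%. SREBF1 had 2.59, 22.9 and 33.9% against 7.38, 5.54 and 5.24%. In each the groups overlapped.

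ACLY, the member that fell in total RNA, had a ratio of 1.93, 1.75 and 0% in siControl and 2.75, 0 and 0% in siCGGBP1. It had at most 62.5 normalised new reads in a library, and no difference in its new RNA was detected (log2 fold change -1.63, SE 2.82). SCD had the most new reads of the fatty acid genes in siControl replicates 2 and 3, with a ratio of 1.60, 4.18 and 6.59% against 3.10, 5.41 and 1.63%, which overlapped. Its conversions per 100 covered T were 0.132, 0.179 and 0.221 in siControl and 0.178, 0.267 and 0.101 in siCGGBP1. The library without 4sU already had 0.117 for SCD. EBP had ratios of 17.2 to 45.4% in siControl and 30.9 to 37.6% in siCGGBP1, but its conversions were already 0.627 per 100 covered T without 4sU, so that its ratio does not measure the pulse alone.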

How the data were processed

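SLAM-Seq libraries were made with the Lexogen QuantSeq 3′ kit, which reads near the 3′ ends of transcripts. For each gene the authors deposited expected counts of reads, of T positions covered, of conversions, and of reads that carry 2 or more. GRAND-SLAM made them after Bowtie2 2.3.0 and STAR 2.5.3a (GRCh38) and did not normalise them. The new-to-total ratio is a fraction deposited by the authors for each gene, with credible limits, from the same tool. No removal of PCR duplicates is named.

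Read counts were rounded, and the 10138 of 18388 genes that reached 100 reads in 3 or more of the 6 libraries were fitted with edgeR 4.0.16 in R 4.3.3 (TMM, quasi-likelihood F test, no covariates), with Benjamini-Hochberg adjustment over all tested genes. The SE is the size of the log2 fold change over the square root of F, and a called gene exceeds 1 on that scale in either direction. New reads were reads multiplied by the maximum a posteriori ratio, scaled with total reads. Intervals and bounds cover counting error only. The fits were also run on simulated counts with known changes, and the share of changes recovered is not reported here. No 2 libraries of a group agreed within sampling noise. DESeq2 1.42.0, limma 3.58.1, other filters, a replicate block and leaving out libraries were alternatives. Gene positions are from GENCODE 44 and promoters from RefSeq. Members and lists were chosen with earlier results of these data known. Full values are given for members called or with an adjusted p under 0.05, for the 2 with the lowest p in each member list, and for other members the text singles out. Of other lists, genes with an adjusted p under 0.05 are named, and some at an unadjusted p under 0.05 that were chosen after their values were seen. A few results of these lists are not reported here.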

Additional observations from a re-analysis of the deposited data

Results flagged for a closer look

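The siControl library with 200 µM 4sU entered no comparison. Summed over the 35 members, its rate was 0.210 T-to-C conversions in each 100 covered T. Without 4sU the rate was 0.0755, so the signal was higher, and it lay within the 0.142 to 0.285 of the 6 libraries with 75 µM. In that single library the new-to-total ratio was 33.3% for IDI1, 23.7% for FDPS, 17.4% for HMGCS1, 15.4% for ACLY and 14.3% for SQLE, and it was estimated as 0 for 15 of the 35 members, among them ACAT2, CYP51A1, NSDHL, DHCR7, INSIG1, FADS1, FADS2 and LPIN1. FDPS, ACLY and SQLE had at most 2.75% in any library with 75 µM. With 1 library at this dose there is no replicate check.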

How the results depend on the processing

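ACLY was called in every fit of total RNA, and no member was called in new RNA in any fit. Leaving out each library in turn gave 1 to 2 called members, 2 to 8 fatty acid genes lower at an unadjusted p under 0.05, a fatty acid median of -0.81 to -0.38 and a sterol median of -0.10 to 0.15 in total RNA, and medians of -3.37 to -0.056 and 0.00 to 1.56 in new RNA. Without both replicate 3 libraries, chosen after seeing the data, these were 2 called members, 3 fatty acid genes and a fatty acid median of -0.43. The cause was not tested. Same-numbered libraries deviated together with correlations of 0.105, 0.172 and 0.0837, each the highest for its library, but the labels do not say what a number marks. With a replicate block ACLY stayed called (-1.46), 8 fatty acid genes were lower at that threshold, the fatty acid and sterol medians were -0.60 and -0.038, and no member's call changed.

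Of the 34 members tested, 24 kept their sign in total RNA in all fits. The other 10 turned sign when libraries were left out in turn, with log2 fold changes of -0.37 to 0.39 for ACAT2, -0.26 to 0.23 for PMVK, -0.050 to 1.03 for IDI1, -0.19 to 0.40 for LSS, -0.15 to 0.29 for CYP51A1, -0.46 to 0.62 for SC5D, -0.25 to 0.63 for INSIG1, -0.37 to 0.081 for SCAP, -0.38 to 0.24 for ACACA and -0.46 to 0.17 for LPIN1. With the replicate block, ACAT2 had 0.012, LSS -0.076 and SC5D -0.12. Without both replicate 3 libraries, ACAT2 had 0.46, IDI1 -0.33, ACACA 0.47 and LPIN1 0.28. The share of member promoters with the SRE letters stayed at 3.23% with strict letters and with the bases before the start alone. The coefficient of variation between libraries that edgeR fitted over all genes was 1.78 in new RNA and 0.399 in total RNA, and how far depth limits new RNA was not tested.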
